A study of Mus musculus with 4 samples.

Results

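The genes examined here belong to the TNF receptor and NF-kB pathway, and their CUT&RUN peaks were compared between 2 states of mouse medullary thymic epithelial cells (mTEC). They were the receptors Tnfrsf11a (RANK), Cd40 and Ltbr, the adaptors Traf6 and Traf3, the kinase Map3k14 (NIK) and the NF-kB subunits Relb, Rela, Nfkb1 and Nfkb2, 10 of the 21627 protein-coding genes measured. The set was picked by function, with earlier results of these data known. Each peak whose summit lay inside the mm10 RefSeq interval of one of these genes, or within 5 kb of it, was counted, and this gave 167 peaks over 4 libraries. CUT&RUN releases short DNA fragments with a nuclease tethered to an antibody on chromatin.

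Both groups came from thymus of mice 4 to 5 weeks old, wild type at Trp53 (label Trp53-WT), with no treatment named and 500000 cells per condition. The mTEClo group (2 libraries) and the mTEChi group (2 libraries) were taken from cells enriched for the epithelial surface protein EpCAM and then sorted by flow cytometry. The names commonly refer to low or high MHC class II on the surface, and cells expressing Aire are found among mTEChi. The antibody is anti-p53 by the titles but anti-BAF155 (a chromatin remodeller subunit) by the protocol text, so the protein marked by the peaks is not settled by the labels. Whether replicates came from separate mice or pools is not stated, so the spread behind each p-value may be technical.

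For mTEClo, replicate 1 had a list of 89809 peaks and replicate 2 of 69359; for mTEChi the lengths were 73510 and 85308. No control-antibody library was analysed here, so a peak has no background measured the same way. All 7 mTEC marker genes (Epcam, Krt5, Krt14, Foxn1, Aire, Cd80 and H2-Aa) had a peak in every library. So did 1 of 5 thymocyte markers, 2 of 5 B cell and myeloid markers and 51.9% of all protein-coding genes. Thymocyte markers with a peak numbered 4 and 5 of 5 for mTEClo and 2 and 4 for mTEChi. B cell and myeloid markers with a peak numbered 4 and 4 of 5 for mTEClo, 3 and 3 for mTEChi. A peak is no measure of expression, and the part of other cells in the results was not tested.

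In the thymic medulla, developing T cells and other lymphoid cells carry the ligands RANKL, CD40L and lymphotoxin, which bind RANK, CD40 and the lymphotoxin beta receptor on mTEC. Through TRAF adaptors these receptors start a canonical and a non-canonical branch of signalling. In the canonical branch an IkB kinase frees dimers of RelA and p50, the product of Nfkb1. In the non-canonical branch receptor binding relieves NIK from TRAF3-dependent degradation, NIK drives processing of the Nfkb2 product to p52, and p52 pairs with RelB. Mice that lack RelB, NIK function or TRAF6 have a poorly formed medulla with few Aire-expressing mTEC.

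Peaks near these genes were frequent in both states and ranked highest at Relb and Map3k14. Among the 10 genes, 9 had at least 1 peak in mTEClo replicate 1, 9 in mTEClo replicate 2, 10 in mTEChi replicate 1 and 9 in mTEChi replicate 2. The same call held for 75.5%, 68.8%, 69.3% and 73% of all protein-coding genes in that order. In all 4 libraries 8 of the 10 had a peak, against 51.9% of all genes; 9 had one in both mTEClo libraries (63.1% of all genes) and 9 in both mTEChi libraries (61.2%). Ltbr and Traf6 were the exceptions. Gene length moves with such calls. Of all genes shorter than 20 kb, 33.7% had a peak in all 4 libraries, and of those longer than 40 kb, 81.9%. Among these 10, the counts were 3 of 4 (Cd40, Rela and Nfkb2, not Ltbr) and 4 of 4 (Tnfrsf11a, Traf3, Map3k14 and Nfkb1). The median gene length was 23236 bp in the set and 17330 bp over all genes. Both length limits were set after values were seen. Genes with a peak in all 4 libraries numbered 11224, these 8 among them.

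**Figure D1:**
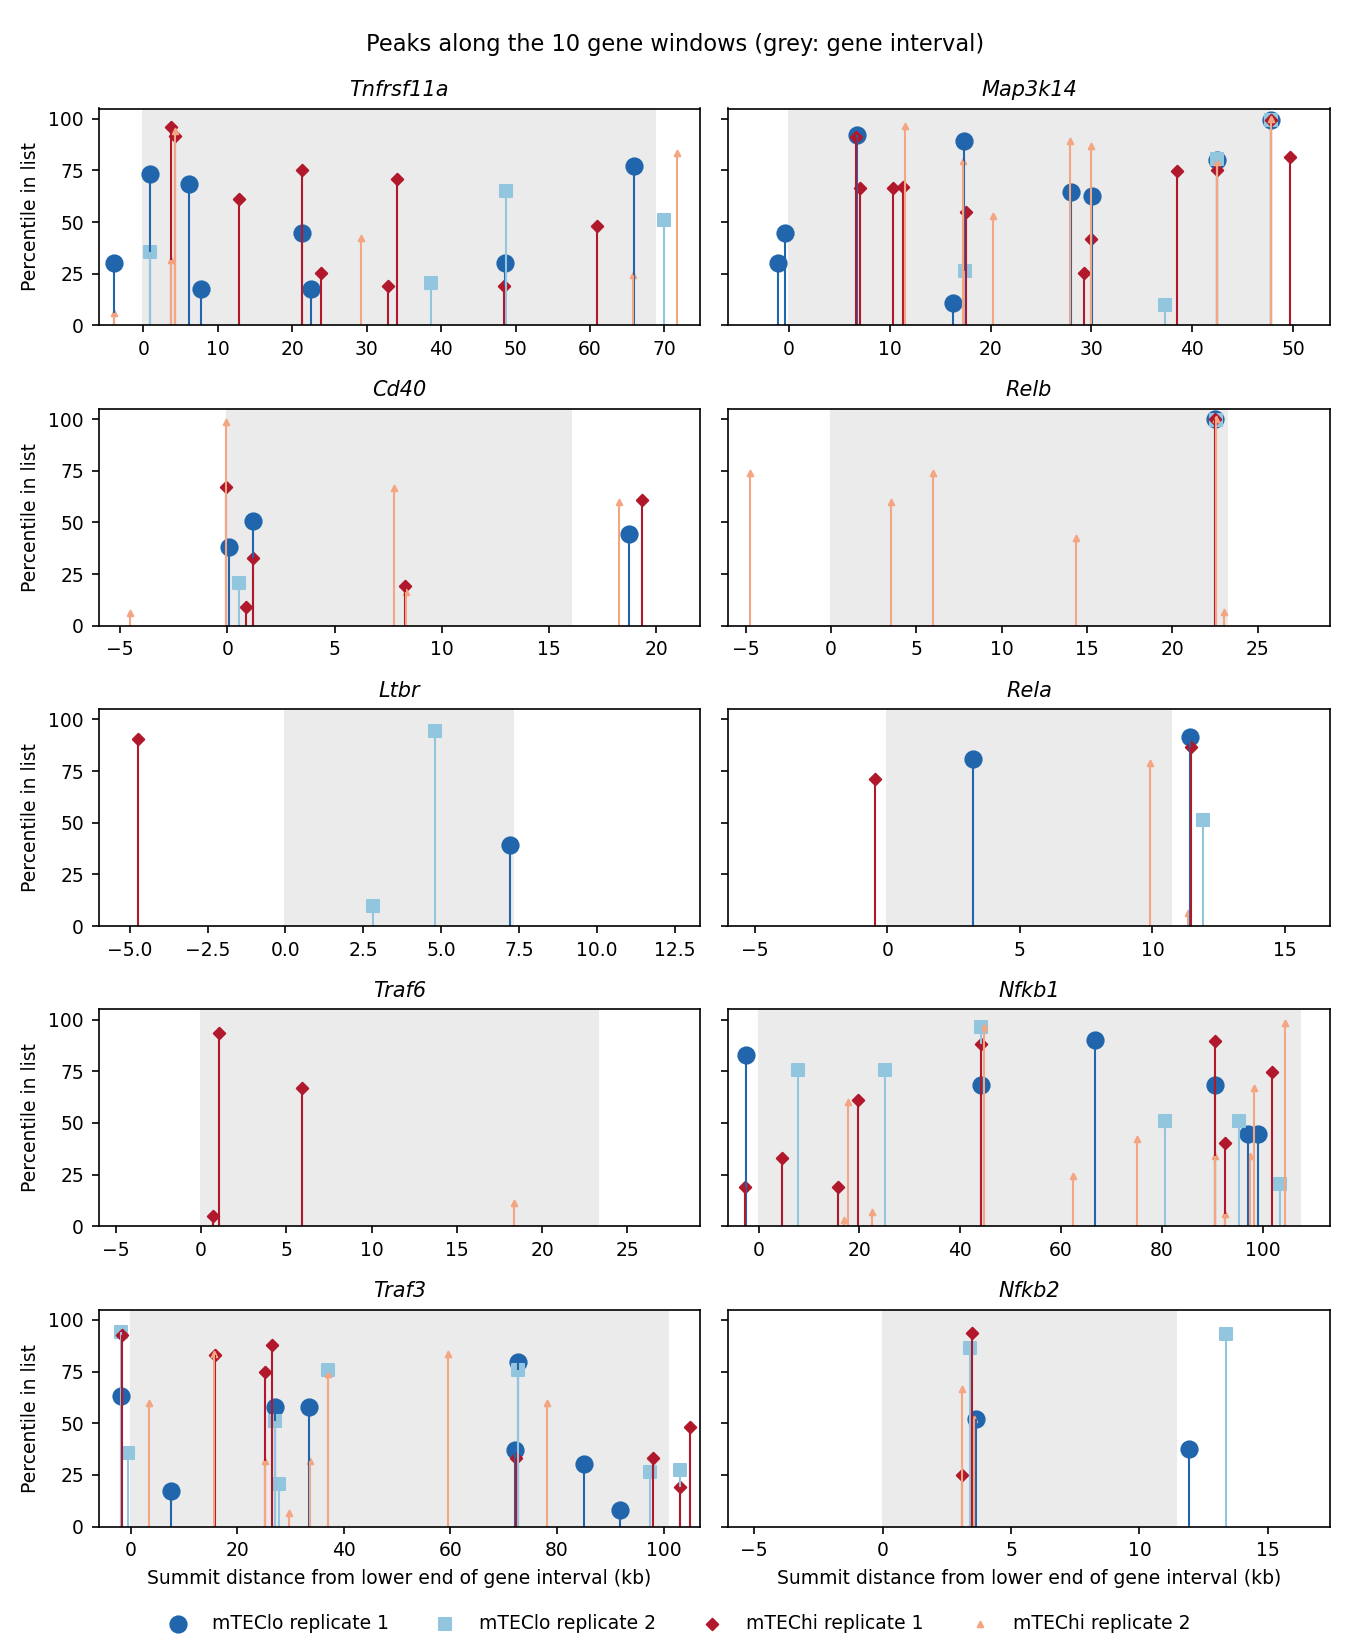
Peaks in the windows of the 10 genes, by summit distance from the lower coordinate of the gene interval (x, kb; grey is the gene interval) and by percentile of the score within the list of its library (y, 100 is the highest score). Symbols stand for the 4 libraries, with larger symbols under smaller ones where they coincide; at Relb and at the upper end of Map3k14 all 4 coincide above 99, whereas most other peaks stand alone.

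Relb, which encodes the subunit that pairs with p52, carried the highest-scoring site of the set (chromosome 7, 19606217 to 19629438). The mTEClo summits lay at 19628739 (replicate 1) and 19628765 (replicate 2), the mTEChi summits at 19628743 (replicate 1) and 19628763 (replicate 2). They fell within 26 bp of each other, inside the gene and 673 to 699 bp from its upper coordinate. The authors' scores, which depend on the library and are given only to describe each list, were 45.0 and 18.9 for mTEClo, and 83.3 and 31.7 for mTEChi. Counted from the highest score, these were ranks 19 and 139 for mTEClo and 25 and 75 for mTEChi. All 4 libraries thus held this site among their highest peaks, and neither state stood apart in rank. The nearest other gene, Clptm1, ended 2815 to 2841 bp away. Beyond this site, both mTEClo libraries and mTEChi replicate 1 had no further Relb peak. In mTEChi replicate 2, 5 more peaks were present, from percentile 6.48 to 73.8 of its list, and 1 of these lay inside the neighbouring gene Clasrp.

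Map3k14, the gene of the kinase NIK (chromosome 11, 103219764 to 103267401, on the minus strand), had its highest peak just before its start in every library. The mTEClo summits lay 210 bp (replicate 1) and 154 bp (replicate 2) before the start, the mTEChi summits 169 bp (replicate 1) and 180 bp (replicate 2). Scores were 17.03, 13.6, 28.5 and 22.1 in the same order, which are ranks 702, 455, 449 and 229. In no library did this site fall below percentile 99.2 of the list. Relb and Map3k14 were the 2 members with a peak among the highest 1% of the list in all 4 libraries, a limit set after their values were seen; 1.49% of all genes met it.

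The promoter of Map3k14 and the first of 3 listed promoters of Nfkb2 are shown because they were the member promoters that a peak overlapped in all 4 libraries. They were 2 of the 9 promoters listed for 7 of the 10 genes, and 8.74% of the 32619 listed promoters on the chromosomes of the peak lists (of 32851 listed in all) were overlapped in this way. Sequences are from RefSeq (GRCm38.p6), cover 250 bases before to 50 after the start and run 5′ to 3′ on the strand of the gene. The Map3k14 window is chr11:103267352-103267651 on the minus strand, the Nfkb2 window chr19:46304487-46304786 on the plus strand. Capitals mark matches to 1 of the 8 motifs searched on both strands: the GC box GGGCGG, the NF-Y motif CCAAT, the TATA box TATAAA, the E-box motif CACGTG, the Ets motif CCGGAA, the AP-1 motif TGANTCA, the kappa-B consensus and the p53 half-site consensus.
Map3k14: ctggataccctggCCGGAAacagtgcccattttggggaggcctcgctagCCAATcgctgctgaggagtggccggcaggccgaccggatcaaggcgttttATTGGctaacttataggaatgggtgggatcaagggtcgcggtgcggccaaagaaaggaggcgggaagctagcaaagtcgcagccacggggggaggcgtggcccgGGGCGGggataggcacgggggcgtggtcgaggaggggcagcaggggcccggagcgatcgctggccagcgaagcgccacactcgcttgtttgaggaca
Nfkb2: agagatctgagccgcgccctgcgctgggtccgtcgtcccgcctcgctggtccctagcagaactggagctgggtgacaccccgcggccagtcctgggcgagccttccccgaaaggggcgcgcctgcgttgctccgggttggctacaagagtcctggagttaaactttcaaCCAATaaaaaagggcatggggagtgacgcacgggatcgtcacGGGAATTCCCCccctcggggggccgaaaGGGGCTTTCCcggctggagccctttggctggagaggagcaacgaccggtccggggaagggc

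The Map3k14 window held an Ets match at bases 14 to 19, CCAAT matches at bases 50 to 54 and, on the other strand, 100 to 104, and a GC box at bases 204 to 209. The 4 summits fell at bases 41, 97, 82 and 71 (mTEClo, then mTEChi, each by replicate), upstream of the GC box. The Ets motif was in 3 of the 9 member promoters (14.997% of all), CCAAT in 2 (37.6%) and the GC box in 8 (35.9%). In the Nfkb2 window, kappa-B matches lay at bases 212 to 221, 213 to 222 (these overlap) and 240 to 249, and a CCAAT match at bases 170 to 174. Matches to the kappa-B consensus were present in 4 of the 9 member promoters (the 3 of Nfkb2, of which the other pair share the site at 46305705 to 46305714, and that of Traf3) and in 8.51% of all promoters. The p53 half-site consensus was present in 0 of the 9 and in 8.36% of all. The TATA box was likewise in 0 of the 9 (13.7% of all), and the E-box motif (7.20% of all) and the AP-1 motif (7.85%) in 1 each. GC content was 65.0% in the Map3k14 and 65.7% in the Nfkb2 window, against a median of 53% over all listed promoters. Such matches are descriptions of letters only.

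Map3k14 also held 2 further sites shared by all 4 libraries, both inside the gene. At 1 of them, 5136 to 5219 bp after the start, percentiles were 79.9 and 80.4 for mTEClo against 75.2 and 79.0 for mTEChi. At the other, 30096 to 30357 bp after the start, they were 89.3 and 26.3 for mTEClo against 54.8 and 79.6 for mTEChi, with summits spread over 261 bp. The number of peaks in its window was 9 and 4 for mTEClo against 11 and 7 for mTEChi; the groups overlapped (difference 2.50, two-sided exact permutation test, p = 0.667). Within 5 kb of the gene ends alone the difference turned to -0.500. It was 5 without mTEClo replicate 1, 0 without mTEClo replicate 2, 0.5 without mTEChi replicate 1 and 4.5 without mTEChi replicate 2.

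Nfkb2, whose product p100 is cut to p52 (chromosome 19, 46300994 to 46312400), carried a cluster of peaks before and over its first listed start at 46304737. Relative to that start (negative is upstream), the mTEClo summits were at -99 bp (replicate 1, score 4.45) and -338 bp (replicate 2, 5.64). In mTEChi replicate 1 a split peak had summits at -278 bp (9.03) and -638 bp (2.83), and mTEChi replicate 2 had them at -174 bp (3.68) and -660 bp (3.88). The 6 summits spanned 561 bp, so this region was shared through a chain of overlapping intervals and not through 1 common position. Percentiles of the best peak in it were 52.1 and 86.3 for mTEClo against 93.7 and 66.6 for mTEChi, with no order by state. The 2 remaining mTEClo peaks of the window, 1 per library, lay inside the neighbouring gene Psd. No peak overlapped the other listed promoters.

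Rela, the gene of the main activating subunit of the canonical branch (chromosome 19, 5637442 to 5648134), had few peaks: 2 and 1 for mTEClo against 2 and 2 for mTEChi. Its most shared region lay 660 to 767 bp past the upper coordinate of the gene, the downstream end, in mTEClo replicate 1 (percentile 91.4) and in both mTEChi libraries (86.5 and 6.25). The peak of mTEClo replicate 2 stood farther out, 1215 bp past the gene (51.2). Near the start, 1 peak was found, at -583 bp in mTEChi replicate 1 (70.9). Rela thus had no site shared by all 4 libraries.

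Nfkb1, which encodes p105 and its product p50 (chromosome 3, 135584655 to 135691969), is the longest gene of the set at 107 kb. It held 6 and 6 peaks in mTEClo and 8 and 11 in mTEChi, and the 2 groups did not overlap (6 ± 0 against 9.5 ± 2.12, SD, n = 2 each; exact permutation test, p = 0.333). The difference of 3.5 fell to 0.5, with overlapping groups, both above the median score and within 5 kb of the gene ends, and was 2 without mTEChi replicate 2. With a 25 kb window it was 2.5, and the groups overlapped there too. Of its 25 regions, 21 belonged to 1 library, 2 to 2 libraries and 2 to 3. One of the latter lay 44084 to 44209 bp above the lower coordinate, with percentiles of 68.6 and 96.3 in mTEClo and 88.0 in mTEChi replicate 1; mTEChi replicate 2 had a summit at 44709 bp (96.5). Its other 3-library region, from 135674973 to 135675424, had 68.6 in mTEClo replicate 1 and 89.9 and 34.1 in mTEChi. The highest Nfkb1 peak of mTEChi replicate 2 (98.3), 2799 bp inside the upper coordinate, had no counterpart in the other 3 libraries.

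Among the receptors, Tnfrsf11a had peaks near its start that were called for mTEClo alone or for mTEChi alone. This gene (chromosome 1, 105780673 to 105849444, plus strand) encodes RANK, the receptor whose stimulation drives growth and maturation of Aire-expressing mTEC. Both mTEClo libraries had a summit 803 bp (replicate 1, score 5.45, percentile 73.4) and 779 bp (replicate 2, 3.48, percentile 35.4) after the start, and no mTEChi peak overlapped it. Both mTEChi libraries had instead a pair of summits further in. The first lay 3670 bp (replicate 1, 11.6, percentile 96.1) and 3662 bp (replicate 2, 3.04, percentile 31.8) after the start, the second 4227 bp (7.76, percentile 91.5) and 4193 bp (6.41, percentile 94.1). In replicate 1 the pair is 1 split peak. No mTEClo summit lay at either place. The next mTEClo summit inward, of replicate 1, was 6092 bp after the start. Traf3 likewise had 2 regions held by mTEClo alone and 2 by mTEChi alone. Of the regions in windows of all protein-coding genes, 3.04% and 2.04% were of these kinds. The contrast at Tnfrsf11a was not tested, and it rests in part on low percentiles (35.4 in mTEClo replicate 2, 31.8 in mTEChi replicate 2). Over the whole window the peaks numbered 8 and 4 for mTEClo against 9 and 6 for mTEChi, with overlapping groups (difference 1.5, exact permutation test, p = 0.667), and the difference was -0.500 without mTEClo replicate 2, 0 without mTEChi replicate 1, and 3.5 and 3 without mTEClo replicate 1 and mTEChi replicate 2.

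Cd40 (chromosome 2, 165055614 to 165071654), the receptor of CD40L, had 3 and 1 peaks in mTEClo and 5 and 5 in mTEChi, which did not overlap (2.00 ± 1.41 against 5.00 ± 0, SD, n = 2 each; exact permutation test, p = 0.333). With equal list lengths, a 25 kb window, gene ends alone or the 10000 highest peaks the groups overlapped. At the lower coordinate of the gene, summits lay 70 and 66 bp outside it in the mTEChi libraries (percentiles 67.0 and 98.4) and 65 bp inside it in mTEClo replicate 1 (38.3). The peak of mTEClo replicate 2, its only one, stood 567 bp inside (20.5). A second site, 8292 to 8338 bp inside, was held by both mTEChi libraries alone, at the low percentiles of 19.1 and 16.2.

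Ltbr (chromosome 6, 125306571 to 125313885), the lymphotoxin beta receptor gene and the shortest of the set, had 4 peaks in 4 separate regions and, like Traf6, no shared site. In mTEClo replicate 1 a summit lay 108 bp after the start (39.2), and in mTEClo replicate 2 there were 2, at 2499 bp (94.3) and 4503 bp (9.77). The 1 peak of mTEChi replicate 1 lay 4740 bp outside the gene, beyond its downstream end (90.6), close to the limit of the window. In mTEChi replicate 2 no peak fell in the window. Just outside it, at 5291 bp from the gene on the side of the neighbouring gene Scnn1a, mTEClo replicate 2 had a peak at percentile 98.98. Over the 10 genes the farthest summit counted lay 4740 bp and the nearest one not counted 5205 bp from a gene.

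Traf6, the adaptor and ubiquitin ligase that joins RANK and CD40 to the canonical branch (chromosome 2, 101678420 to 101701668), had no peak in either mTEClo library. The mTEChi libraries had 3 and 1 peaks (0 ± 0 against 2.00 ± 1.41, SD, n = 2 each; exact permutation test, p = 0.333). Of all genes, 1.67% had a peak in both mTEChi and no mTEClo library and 2.14% the other way, and 1 and 0 of the 10 did. The Traf6 peaks of the 2 mTEChi libraries did not share a position. Replicate 1 had summits 679 bp (5.05), 1053 bp (93.4) and 5911 bp (67.1) after the start, while the single summit of replicate 2 lay 18337 bp after it, at percentile 11.4. With peaks above the median score, equal list lengths or the 10000 highest peaks, the mTEChi replicate 2 peak is left out and the groups overlap. Without mTEChi replicate 1 the difference of 2 was 1.

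Traf3, which holds NIK in check (chromosome 12, 111166321 to 111267155), had 8 peaks in each of the 4 libraries (difference 0, exact permutation test, p = 1). With other windows or score limits the difference ran from 0 to 1. The shared position nearest its start lay upstream, at -1882 bp (mTEClo replicate 1, percentile 63.1), -1899 bp (mTEClo replicate 2, 94.3) and -1747 bp (mTEChi replicate 1, 92.5). Of its 22 regions, 2 were held by both mTEClo libraries alone and 2 by both mTEChi libraries alone, all 4 inside the gene, and 13 by 1 library. One mTEChi replicate 1 peak of the window lay inside the neighbouring gene Amn.

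**Figure D2:**
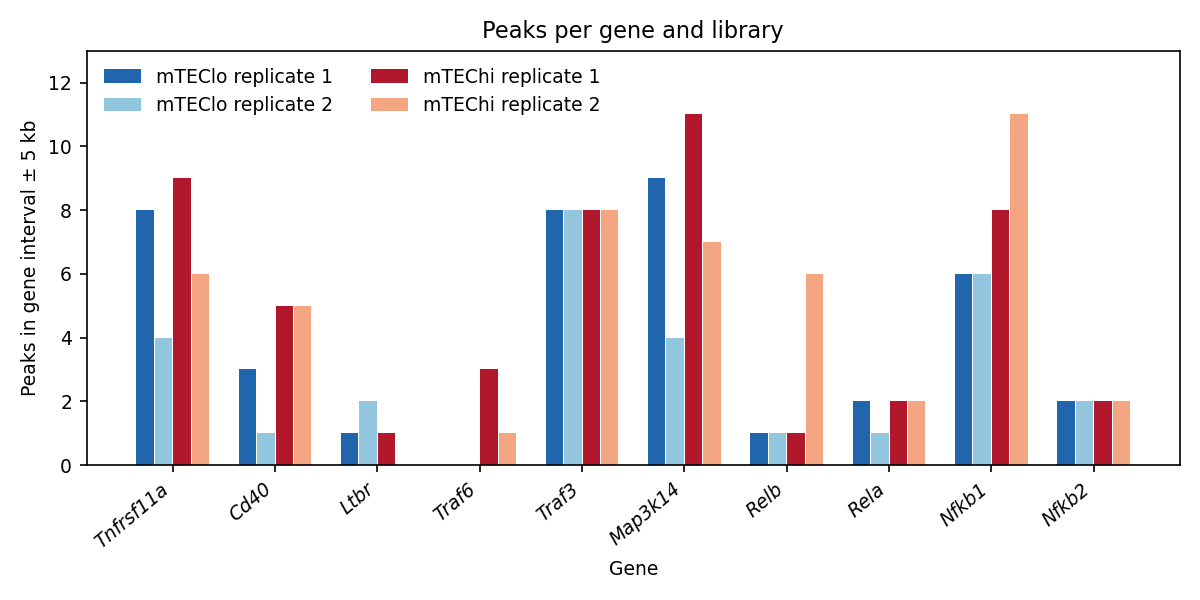
Number of peaks (y) inside each gene or within 5 kb of it, for the 10 genes (x) and the 4 libraries (bars). Only at Cd40, Traf6 and Nfkb1 do both mTEChi bars exceed both mTEClo bars, and Traf3 and Nfkb2 have equal numbers in all 4 libraries. Part of the mTEClo peaks counted at Nfkb2 lie inside the neighbouring gene Psd.

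Summed over the 10 windows, peaks were more numerous in mTEChi, at 50 and 48, than in mTEClo, at 40 and 29. The means were 34.5 ± 7.78 and 49.0 ± 1.41 (SD, n = 2 each), a difference of 14.5, which was 9 without mTEClo replicate 2 and 5 within 5 kb of the gene ends. Cutting every list to its 69359 highest peaks left 35 and 29 against 49 and 38. Per 10 kb of window the density was 0.774 and 0.561 peaks in mTEClo and 0.968 and 0.929 in mTEChi, and over the windows of all protein-coding genes it was 0.464, 0.354, 0.371 and 0.431. Each library therefore held more peaks per length in these windows than in gene windows at large, by ratios of 1.67 and 1.59 for mTEClo against 2.61 and 2.16 for mTEChi. Sums over the set were not tested, since the genes were chosen with results known.

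Gene by gene, 3 of the 10 (Cd40, Traf6 and Nfkb1) had more peaks in both mTEChi libraries than in either mTEClo library, against 8.4% of all genes, and 0 of the 10 had the opposite order, against 9.28%. This count rests on the settings: it was 1 with equal list lengths (Nfkb1), 1 within 5 kb of the gene ends (Traf6) and 1 with a 25 kb window (Traf6). With peaks above the median score it was 2 (Cd40 and Map3k14), and with the 10000 highest peaks 2 (Tnfrsf11a and Nfkb1). Without mTEClo replicate 1 it was 6, and without mTEChi replicate 2 it was 5. Gene length was not taken into account for the shares of all genes with either order. Ltbr took the opposite order with a 1 kb window and without mTEClo replicate 1 or mTEChi replicate 1. With 2 libraries against 2 the smallest p an exact permutation test can give is 0.333, so no gene could pass 0.05, and every adjusted p over the 10 genes was 1.

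**Figure D3:**
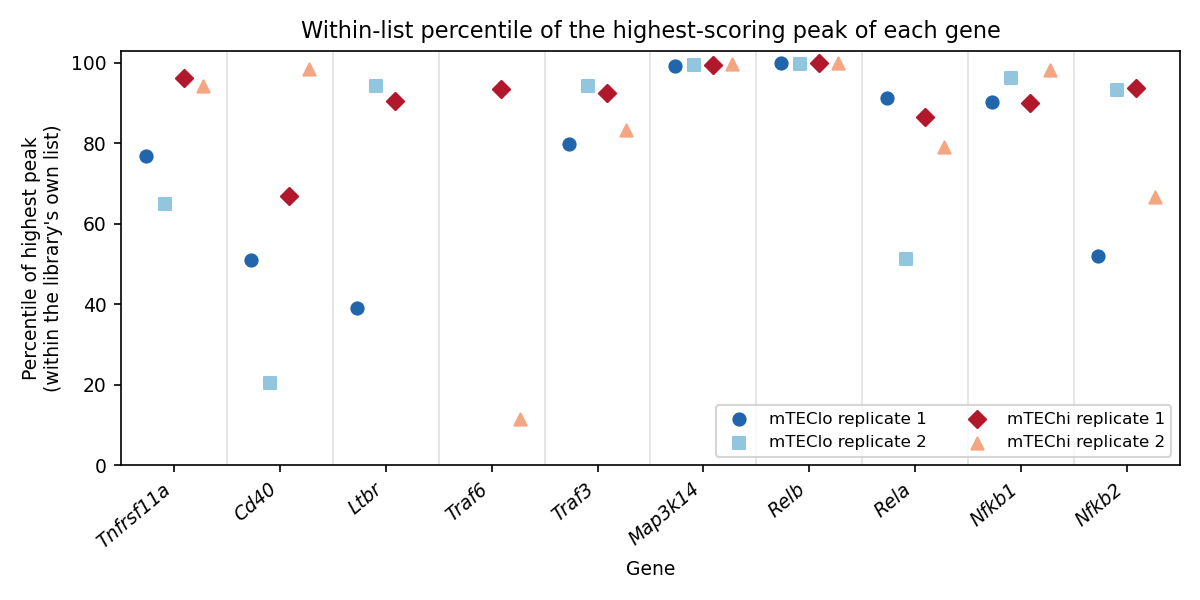
Percentile (y, 100 is the highest score of the library's own list) of the highest-scoring peak of each gene (x) in the 4 libraries (symbols); a missing symbol means no peak in the window. Map3k14 and Relb lie above 99 in all 4 libraries, and Traf6 has no mTEClo symbol.

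The percentile of the best peak had a median over the called members of 79.9 and 94.3 for mTEClo and 93.0 and 94.1 for mTEChi. Over all genes called, the medians were 82.9 and 79.5 for mTEClo and 83.1 and 83.3 for mTEChi. At Tnfrsf11a the best percentile was 77.0 and 64.9 for mTEClo against 96.1 and 94.1 for mTEChi, and at Cd40 50.9 and 20.5 against 67.0 and 98.4. At both genes, and at Map3k14 by a narrow margin, the mTEChi values were the higher ones without overlap. These are 3 of the 8 members with a peak in all 4 libraries, against 20.7% of the 11224 genes with one; 0 of the 8 had the opposite order, against 17.4%. At Traf3 (79.9 and 94.3 against 92.5 and 83.3), Rela (91.4 and 51.2 against 86.5 and 79.0), Nfkb1 (90.2 and 96.3 against 89.9 and 98.3) and Nfkb2 (52.1 and 93.3 against 93.7 and 66.6) the states overlapped. The 93.3 at Nfkb2, in mTEClo replicate 2, belongs to a peak inside the neighbouring gene Psd. Inside Nfkb2 the peak of that library had 86.3. Percentiles from lists of different length describe each list and show no change. Of the 167 peaks, 16.2% ranked in the highest 10% of their list, against 12.0% of the 190639 peaks in the windows of all genes, and 40.7% lay below the middle rank, against 47.7%. Tied scores were given their mean rank, and many peaks were tied. Peaks tied at the median score stood at percentile 51.2 in mTEClo replicate 2 but at 48.2 and 42.2 in mTEChi. The share below the middle therefore depends in part on ties. Of the 27 peaks in the highest 10%, 8 were the Relb site and the Map3k14 site before its start, each counted in all 4 libraries. These 8 were also all the peaks in the highest 1% (4.79% of the 167, against 1.49% in the windows of all genes). Both shares therefore rest in part on these sites.

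Merging the 4 lists gave 115 regions in the 10 windows, most of them seen in 1 library. One library held 82 of them (71.3%, against 82.6% of the 149117 regions in windows of all genes), 2 libraries 21 (18.3% against 10.8%), 3 libraries 7 (6.09% against 3.74%) and all 4 libraries 5 (4.35% against 2.84%). The 5 were the Relb site, the cluster before and over the first listed start of Nfkb2, inside that gene's interval, and the 3 Map3k14 sites. Regions held by both mTEChi libraries and no mTEClo library numbered 7 (6.09% against 2.04%), 2 each at Tnfrsf11a and Traf3 and 1 each at Cd40, Map3k14 and Nfkb1. The 2 at Tnfrsf11a are parts of 1 split peak in mTEChi replicate 1. Regions of the opposite kind numbered 3 (2.61% against 3.04%), 1 at Tnfrsf11a and 2 at Traf3. With equal list lengths the mTEChi-only and mTEClo-only regions numbered 5 and 3, and with summits within 75 bp 8 and 5. Leaving out a library of the state that must lack a peak drops a condition, so these counts could hardly fall. Without mTEClo replicate 1 or 2 the mTEChi-only regions were 11 and 8. Without mTEChi replicate 1 or 2 the mTEClo-only regions were 6 and 3. Without 1 of the 2 libraries of the state itself, where 1 list suffices, the counts rose to 34 and 31 for mTEChi and to 20 and 19 for mTEClo. Regions in every library left were 9 without mTEClo replicate 2 and 8 without mTEChi replicate 2. Regions are not replicates, and these shares were not tested.

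**Figure D4:**
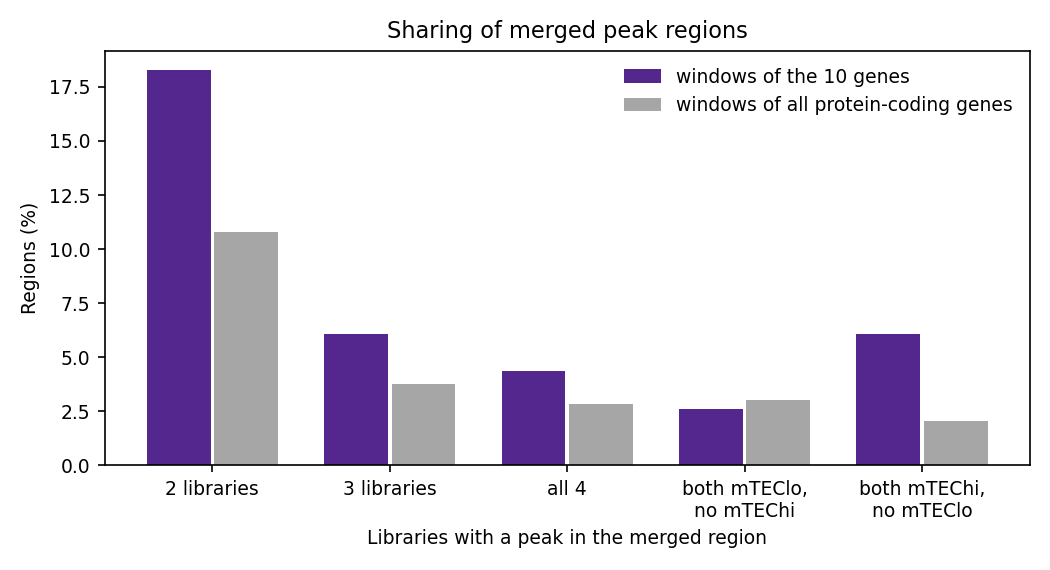
Share of merged peak regions (y, %) held by 2, 3 or all 4 libraries and by both libraries of 1 state alone (x), in the windows of the 10 genes (purple, 115 regions) and of all protein-coding genes (grey, 149117 regions). The widest relative gap is in regions of both mTEChi and no mTEClo library, 6.09% against 2.04%.

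By place, 132 of the 167 peaks lay inside a member and 35 outside, 4 of them inside another protein-coding gene. Within 1 kb of an end of the member itself lay 15.6%. Of the peaks in windows of all genes, 19.04% lay that close to an end of any protein-coding gene. The latter is a wider measure, so the shares cannot be compared directly.

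Other genes of the pathway, 38 in a wider list of ligands, receptors, adaptors, kinases, a subunit and inhibitors, also had peaks in most libraries. In all 4 libraries 28 of 38 had a peak (73.7%, against 51.9% of all genes). In both mTEClo libraries 29 did (76.3%, against 63.1%) and in both mTEChi libraries 34 (89.5%, against 61.2%). Gene length, which moves with such calls, was not taken into account for the 38. Peaks in both libraries of only 1 state were found at 0 of them. Of all genes, 2.14% had them in mTEClo alone and 1.67% in mTEChi alone, so 0 is near these shares. More peaks in both mTEChi than in either mTEClo library were found for 7 of 38, against 8.4% of all genes, and the opposite for 2, against 9.28%. By role, peaks in all 4 were present at 3 of 6 ligands (Lta, Ltb and Tnf, whose neighbouring windows share peaks), 3 of 4 receptors, 8 of 9 adaptors and ubiquitin ligases, 5 of 8 kinases and 9 of 10 inhibitors and feedback genes. Rel, the remaining subunit, lacked a peak in mTEClo replicate 2. Cd40lg, on chromosome X, had none in any library.

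Of the wider list, 6 genes stood highest by their lowest percentile over the 4 libraries. Rnf31, a subunit of the linear ubiquitin ligase complex, had best percentiles of 99.6 and 99.4 for mTEClo against 99.4 and 98.9 for mTEChi. Cyld, a deubiquitinase that dampens NF-kB signalling, had 98.6 and 97.4 against 99.5 and 99.4. Traf2, which acts with TRAF3 in the degradation of NIK, had 99.2 and 95.8 against 99.01 and 97.8. They were followed by Tnip1, an adaptor of the feedback deubiquitinase A20 (97.1 and 96.3 against 92.6 and 97.9), Nfkbia, the gene of the inhibitor IkB alpha (98.97 and 95.1 against 98.03 and 90.8), and Birc3, a ubiquitin ligase of the same TRAF complex (92.3 and 88.6 against 99.1 and 98.99). None of the 38 had a peak in the highest 1% of all 4 lists, and 1.49% of all genes did, so the list was near that share.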

How the data were processed

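Chromatin fragments were profiled by CUT&RUN in 2 mTEClo and 2 mTEChi libraries, grouped and numbered by their sample titles. The submitters' processing notes name mm10, MACS2 2.2.7.1, SAMtools 1.9, Picard and Bowtie2 2.2.9; for settings and any control, nothing is given in the sources used here. The authors deposited 1 list of 301 bp intervals per library, each with a score read here as −log10 of p or of q (not stated which); the lowest score is 2.00 in every list. Depth is unknown. Scores are printed to describe a peak in its own list, and gave ranks and thresholds within it; scores of different libraries were not compared.

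Gene intervals came from a RefSeq table of GRCm38.p6, the mm10 assembly (21627 protein-coding genes on the chromosomes of the lists), and promoters from a RefSeq table of the same build. Gene starts were available for 7 of the 10 genes; for Cd40, Relb and Nfkb1, distances were measured to the ends of the gene interval. A library was taken to call a gene where at least 1 summit lay inside it or within 5 kb. Peaks of the 4 lists were merged into regions where they shared at least 1 bp. Peak numbers per gene were tested by exact permutation of the libraries (two-sided) with Benjamini-Hochberg adjustment over the 10 genes; nothing else was tested. The window and region steps were checked on simulated lists. The members, the wider list, the tests and the alternatives were chosen with earlier results of these data known. All 10 members are named. From the wider list were named up to 6 genes with peaks in all 4 libraries and the best lowest percentile, and up to 4 with peaks in both libraries of only 1 state; other names were chosen after their values were seen. Alternatives were windows of 1 and 25 kb, gene ends alone, peaks above the median score, the 10000 highest peaks, equal list lengths (ties drawn once at random), summits within 75 bp in place of overlap, each library left out in turn, and the replicate block. The software was scipy 1.17.1, pandas 2.3.3, numpy 2.4.6 and, for plots, matplotlib 3.10.9 under Python 3.11.15.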

Additional observations from a re-analysis of the deposited data

How the results depend on the processing

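Depth is unknown and 2 libraries a state limit every comparison. The summed peak difference of 14.5 stayed positive under all alternatives: 5 within 5 kb of gene ends, 3.5 with the 10000 highest peaks, and 9 to 20 without 1 library. With the 10000 highest peaks, 3 genes had a peak in all 4 libraries, 3 in both mTEClo and 4 in both mTEChi libraries; mTEClo-only, mTEChi-only and 4-library regions numbered 0, 1 and 2. Gene ends alone gave 1, 2 and 3 such regions. Peaks above the median score gave 1 mTEClo-only and 4 mTEChi-only regions, a 25 kb window 5 mTEClo-only and 8 4-library regions, and summits within 75 bp 5 and 3. Without 1 library the 3 kinds ran from 3 to 20, 8 to 34 and 5 to 9. Genes with more peaks in both mTEChi libraries (3) numbered 1 with a 25 kb window, gene ends alone or equal list lengths, and 3 to 6 without 1 library; the opposite order (0) was met by 1 with a 1 kb window and by 0 to 1 without 1 library. By construction these settings admit fewer or more peaks or libraries, except summits within 75 bp, which changes the merging of the same peaks. Of 110 values for single genes, 107 did not take the opposite sign. The exceptions were Map3k14 (gene ends, -0.5), Rela (10000 highest, -0.5) and Tnfrsf11a (without mTEClo replicate 2, -0.5). This count was partly fixed in advance. Traf3 and Nfkb2 had a difference of 0, which has no opposite sign, though Nfkb2 ran from -0.5 (10000 highest peaks) to 0.5 (1 kb window). The replicate block repeats the main difference. Values that fell to 0, such as Map3k14 without mTEClo replicate 2, also count among the 107. No alternative gave an exact p under 0.333 for a gene.

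With the replicate number as a block (replicate block) the summed difference was the same 14.5, and the smallest p a paired exact test allows is 0.5. The labels do not say that a number marks a shared mouse or day, and deviations of same-numbered libraries correlated at -0.00405 over 21627 genes, a description.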

Other observations

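Of the wider list, 7 genes had more peaks in both mTEChi than in either mTEClo library, against 8.4% of all genes; they are named here after their values were seen. Tnfrsf11b, the gene of osteoprotegerin, a decoy receptor that binds RANKL, had 1 and 0 peaks in mTEClo and 5 and 5 in mTEChi. Otulin, a deubiquitinase of linear chains, had 4 and 2 against 9 and 6. Bcl3, a nuclear IkB protein, had 3 and 2 against 4 and 4, and Rnf31 2 and 3 against 4 and 4. At Map3k7, the gene of the kinase TAK1, the numbers were 2 and 4 against 5 and 5, at Tbk1 3 and 0 against 4 and 4, and at Nfkbid 1 and 1 against 2 and 4. The opposite order, met by 9.28% of all genes, was found at Tnfrsf1a, a receptor of TNF (3 and 4 against 1 and 2), and at Cyld (4 and 4 against 3 and 3). These differences were not tested, and gene length was not taken into account.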
